A study of Mus musculus with 8 samples.

Results

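The 10 genes described here are markers of the intestinal epithelium, the cell layer that lines the gut. They are Fabp2, Apoa1, Apoa4, Apob, Vil1, Lgals4, Sis, Slc5a1, Muc2 and Tff3. They were picked by symbol out of the 23366 genes in the deposited table, after their levels in these same libraries had been seen. The difference between the populations was part of that choice, so it is given as a description and without a test. RNA was profiled in 8 libraries of primary beta cells that were sorted from the pancreas of NOD mice aged 8 to 10 weeks. NOD is an inbred strain that develops autoimmune diabetes, and no treatment or transgene is named for any group. Each library was amplified from about 1000 cells with a kit made for small RNA amounts and tagmented with Nextera XT. The labels name a bottom and a top population, with 4 libraries each: bottom 1 and bottom 2 in batch 1, bottom 3 and bottom 4 in batch 2, top 1 and top 2 in batch 1, and top 3 and top 4 in batch 2. The labels do not describe the sort gates. They also do not tie a library to an animal, so the spread behind a p-value is that between libraries, which may be technical.

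In the small intestine, absorptive enterocytes take up fat and sugar across a brush border of microvilli and package dietary lipid with apolipoproteins into chylomicrons. Goblet cells, scattered among them, secrete the mucins and trefoil peptides of the mucus layer. Transcription factors of the HNF4, HNF1, CDX and GATA families are known to act at many enterocyte promoters.

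RefSeq windows of 250 bases before the annotated start (build GRCm38.p6, matched by symbol) were at hand for 9 of the 10 genes; Tff3 was not among them. They come from another build than the expression table, so they show the sequence next to these genes and carry no measured value. Both strands were searched for 6 motifs, and matches are in capitals. The windows of Sis (chr3:72967864-72968113, minus strand) and Fabp2 (chr3:122894822-122895071, plus strand) are shown because they held a match to the CDX motif CAATAAA, and those of Apoa1 (chr9:46228380-46228629, plus strand) and Apoa4 (chr9:46240594-46240843, plus strand) because these genes share a cluster on chromosome 9 and had closely similar profiles over the libraries. Each is printed 5′ to 3′ on the strand of its gene.
Sis: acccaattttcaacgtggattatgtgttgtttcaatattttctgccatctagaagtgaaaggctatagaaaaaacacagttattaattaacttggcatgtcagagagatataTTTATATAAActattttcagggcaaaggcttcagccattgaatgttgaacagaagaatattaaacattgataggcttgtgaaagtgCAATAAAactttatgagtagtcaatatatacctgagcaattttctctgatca
Fabp2: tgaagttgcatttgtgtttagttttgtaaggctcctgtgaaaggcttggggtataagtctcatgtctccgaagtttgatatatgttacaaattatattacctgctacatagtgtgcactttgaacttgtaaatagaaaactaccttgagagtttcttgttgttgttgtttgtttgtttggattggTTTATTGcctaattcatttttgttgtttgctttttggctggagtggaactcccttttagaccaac
Apoa1: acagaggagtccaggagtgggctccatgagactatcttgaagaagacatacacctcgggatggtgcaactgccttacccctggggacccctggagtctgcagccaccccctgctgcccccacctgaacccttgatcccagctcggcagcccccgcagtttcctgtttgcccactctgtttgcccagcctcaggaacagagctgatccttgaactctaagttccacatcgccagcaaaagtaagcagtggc
Apoa4: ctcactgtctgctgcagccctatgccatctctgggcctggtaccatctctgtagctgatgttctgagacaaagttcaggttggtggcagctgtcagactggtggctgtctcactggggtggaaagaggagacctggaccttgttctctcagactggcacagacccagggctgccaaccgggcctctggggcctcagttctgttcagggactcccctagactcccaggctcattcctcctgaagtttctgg
The CDX motif CAATAAA occurred in 2 of the 9 windows and in 4.2% of 32851 mouse windows of the same length. In Sis it lay on the plus strand of the gene, 52 to 46 bases before the start, and in Fabp2 on the opposite strand, where it reads TTTATTG in capitals, 65 to 59 bases before the start. TATAAA occurred in 3 of 9 windows (Sis, Muc2 and Apob) and in 12.4% of all windows. The Sis window holds it on both strands, at 138 to 133 and at 134 to 129 bases before the start, and these 2 matches overlap. The motif CCATAAA of CDX factors, found in 2.43% of all windows, was in none of the 9. None held the GATA motif AGATAAG either, which 2.74% of all windows hold. The same was true of the HNF4 motif CAAAGTCCA, held by 0.384% of all windows, and of the HNF1 motif GTTAATNAT, held by 0.737%. A match is a run of letters only, and its absence says nothing of the factor.

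Libraries held 7256042 to 11262368 estimated counts in bottom and 6657639 to 9366913 in top. No 2 libraries held identical values. As a check of the labelled cell type, Ins2, which encodes insulin, had 22279 to 57769 CPM (counts relative to the library total after TMM scaling) in bottom and 257175 to 407137 CPM in top, and its fitted log2 fold change was -2.99 (SE 0.30, edgeR adjusted p 0.00498). The islet hormones of other cells were present as well: Sst, the somatostatin gene of delta cells, had 31582 to 55702 CPM in bottom and 2333 to 5048 CPM in top. Gcg, the glucagon gene of alpha cells, had 27939 to 137465 CPM in bottom and 62189 to 135234 CPM in top. For the 10 intestinal genes, the summed level was highest in bottom 1, bottom 2 and top 1, all of batch 1. Top 4 of batch 2 came next. The sum was 21701, 5045, 43.3 and 13.7 CPM in bottom 1 to bottom 4, against 1428, 117, 52.4 and 471 CPM in top 1 to top 4.

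The genes of lipid absorption were high in few libraries. Fabp2, the fatty acid binding protein of the enterocyte cytosol, had 7929, 1780.3, 1.79 and 1.39 CPM in bottom 1 to bottom 4, against 461, 43.9, 2.35 and 278 CPM in top 1 to top 4. The batch 1 bottom libraries were the highest of the 8 and the batch 2 bottom libraries the lowest, so the populations overlapped. Behind these levels lay 72582 and 19046 counts in bottom 1 and bottom 2 but 17 and 15 counts in bottom 3 and bottom 4. In top, the counts were 3207, 350, 19 and 1751. The mean was 2428 ± 3762 CPM in bottom and 196 ± 214 CPM in top (SD, n = 4 each), an SD larger than the mean in both.

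Apoa1, the main protein of high-density lipoprotein, which liver and small intestine make, had 7125, 1591, 0.632 and 0.556 CPM in bottom 1 to bottom 4, against 483, 28.6, 1.24 and 75.3 CPM in top 1 to top 4. Apoa4, an apolipoprotein of chylomicrons, had 1597, 374, 0.527 and 0.463 CPM in bottom, against 109, 8.04, 0.371 and 14.3 CPM in top. Both followed the order of Fabp2: bottom 1 highest, bottom 2 next, then top 1, top 4 and top 2, with bottom 3, bottom 4 and top 3 near 0. Apob, the structural protein on which chylomicrons and very low density lipoproteins are built, had 146, 6.08, 0 and 0 CPM in bottom, against 34.4, 1.00, 0 and 1.11 CPM in top. For Apob, top 1 exceeded bottom 2, and bottom 1 alone held most of the counts. With totals of this size, 0 counts in a library allowed a level of up to 0.278 to 0.476 CPM (3 counts on the same TMM scale), a limit for counting error alone, because PCR copies were not told apart by molecular identifiers. In RNA from bulk samples, fewer cells of a type and less RNA per cell cannot be told apart.

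The brush border genes had the same high libraries. Vil1, which bundles the actin core of microvilli, had 350, 188, 36.5 and 9.82 CPM in bottom, against 60.6, 24.1, 44.4 and 29.7 CPM in top. It was the only one of the 10 with more than 9 CPM in every library, with bottom 1 and bottom 2 above the top libraries, bottom 3 within their range and bottom 4 below it. Sis, the disaccharidase sucrase-isomaltase of the brush border, had 863, 181, 0.211 and 0 CPM in bottom, against 54.2, 1.38, 0.124 and 0 CPM in top. Its level was at or next to 0 in all 4 batch 2 libraries, in both populations. Slc5a1, the sodium-glucose cotransporter of the intestine, had 605, 33.6, 2.95 and 0 CPM in bottom, against 68.9, 4.77, 0.124 and 12.2 CPM in top. Lgals4, galectin-4, a lectin of gut epithelium, had 2614, 666, 0.632 and 1.48 CPM in bottom, against 153, 5.15, 3.83 and 59.5 CPM in top. For Slc5a1 top 1 exceeded bottom 2, whereas for Sis and Lgals4 bottom 2 exceeded every top library.

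The goblet cell genes differed from the enterocyte genes in top 1. Muc2, the gel-forming mucin of the intestine, had 59.5, 6.92, 0 and 0 CPM in bottom and 0 CPM in all 4 top libraries. Its 619 counts in bottom stood against 0 in top, and with a floor of 3 counts over the whole top group (0.102 CPM) its pooled level of 15.4 CPM in bottom was at least 150.6-fold higher. All of those counts came from bottom 1 (545) and bottom 2 (74). Tff3, a trefoil peptide secreted with mucus, had 413, 219, 0 and 0 CPM in bottom, against 3.60, 0.126, 0 and 1.11 CPM in top. Of the 10 genes, these were the ones with the lowest level in top 1 relative to bottom 1, 0% for Muc2 and 0.87% for Tff3.

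**Figure D1:**
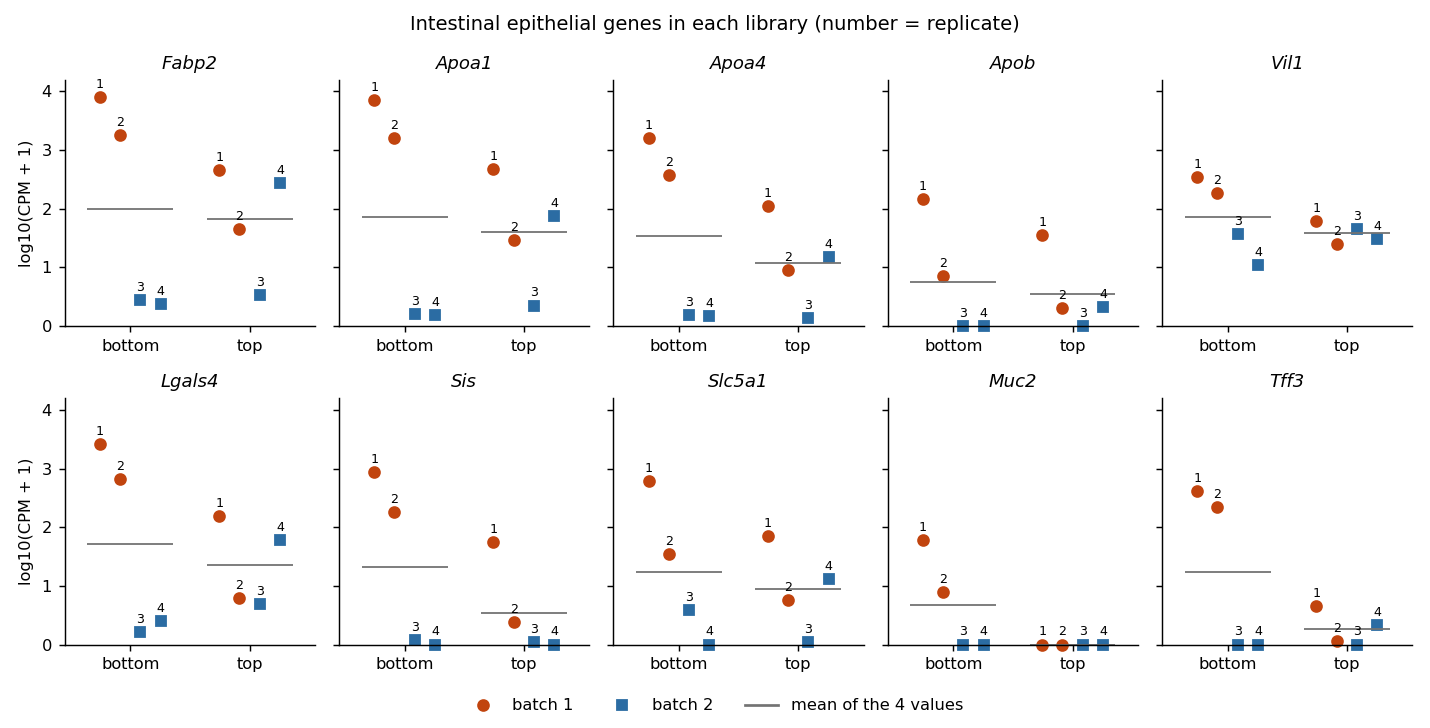
Level of each of the 10 genes in each library, as log10(CPM + 1), with bottom left of top; points are libraries, labelled by replicate number, circles are batch 1, squares batch 2, and the grey line is the mean of the 4 plotted values. Bottom 1 is the highest library for 10 of 10 genes, and the bottom libraries of batch 2 hold less than 3 CPM of every gene but Vil1.

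Set out within batches, the bottom minus top difference changed size or sign. In batch 1 both bottom libraries were above both top libraries for 8 of the 10 genes, all but Apob and Slc5a1, as they were for 20.3% of the 11721 genes tested. In batch 2 that was so for 0 of 10 (20.2% of genes tested), and both bottom libraries were below both top libraries for 3 of 10, Fabp2, Apoa1 and Lgals4 (18.3% of genes tested). On the scale of mean log2(CPM + 1), the bottom minus top difference of Fabp2 was 4.70 in batch 1 and -3.57 in batch 2. It was 4.81 and -3.04 for Apoa1, 4.62 and -1.62 for Apoa4, and 5.42 and -3.09 for Lgals4 in the same order of batches. Tff3 had the largest difference in batch 1, 7.05, and -0.54 in batch 2. Sis differed by 5.11 in batch 1 and by 0.05 in batch 2, where its levels lay under the limit that 0 counts allow. Across both batches, all 4 bottom libraries exceeded all 4 top libraries for 0 of the 10 genes, against 3.31% of genes tested.

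**Figure D2:**
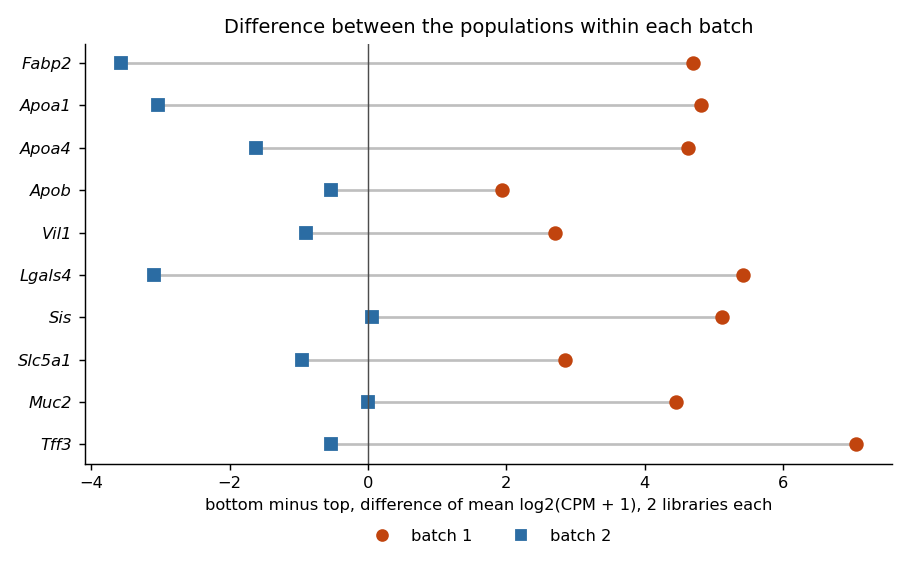
Difference of mean log2(CPM + 1) between bottom and top (x axis) for each gene (y axis), computed from 2 libraries each within batch 1 (circles) and batch 2 (squares). Every circle lies right of 0, between 1.94 and 7.05, and 8 of the 10 squares lie left of 0, down to -3.57 for Fabp2.

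A fit across all genes gave the scale of this spread. Of the 10 genes, 7 passed the filter on low counts and entered the edgeR quasi-likelihood fit with batch as a covariate, while Apob, Muc2 and Tff3 did not pass it. The fitted log2 fold change, bottom over top, was 3.88 (SE 1.40) for Sis, 1.00 (SE 0.83) for Vil1, 0.70 (SE 2.11) for Slc5a1 and 0.58 (SE 2.71) for Apoa4. For Lgals4, Apoa1 and Fabp2 it was -0.01 (SE 1.93), -0.56 (SE 4.28) and -0.92 (SE 5.36). For these 3 the fold change was negative although the mean CPM was higher in bottom. Their differences within the batches had opposite signs. The median over the 7 was 0.58, beside 0.003 over all genes tested, and 4 of 7 were positive, beside 50.1% of all. At an adjusted p under 0.05, edgeR called 0 of the 7 higher, beside 0.282% of all genes tested, and 0 lower, beside 0.162%. DESeq2 called 0 as well, beside 368 higher and 219 lower of 11721 genes tested. An unadjusted edgeR p under 0.05 was found for 1 of the 7, beside 1202 of the 11721 genes tested. These counts come from the values on which the genes were chosen and are no test of them. In batch 1 alone 10 of 10 fold changes were positive, and in batch 2 alone 0 of the 4 that could be fitted. The fit without bottom 1, bottom 2 and top 1, the libraries with the highest summed levels of these genes, takes its contrast from batch 2 alone, and 0 of the 6 genes it could fit were positive.

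The difference between the batches was also fitted as an interaction of batch and population. The log2 difference in batch 2 minus that in batch 1 was -10.72 for Fabp2, -10.06 for Apoa1, -9.24 for Lgals4, -7.92 for Apoa4, -5.18 for Slc5a1, -3.77 for Sis and -3.34 for Vil1. The batches had been shown apart when these genes were chosen, so these values too are a description. Over all genes tested, edgeR called 0.00% for this interaction, with 885 of 11721 genes at an unadjusted p under 0.05. Without the filter on low counts it called 73 of 17397 genes tested, 5 of them among the 10 genes. DESeq2 called 187 of 11721 genes tested, 3 of them among the 7 tested. Nothing is read from these calls of the 10 genes, whose values by batch were known when they were chosen.

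Within batch 1 the genes differed in the ratio of bottom 1 to bottom 2. Fabp2 was 4.45 times as high in bottom 1 as in bottom 2 (exact binomial 95% interval of the count ratio 4.38 to 4.53), Apoa1 4.48 times (4.403 to 4.555), Apoa4 4.27 times (4.13 to 4.43), Sis 4.77 times (4.54 to 5.01) and Lgals4 3.93 times (3.82 to 4.03). The ratios of these 5 enterocyte genes, grouped after their values were seen, lay between 3.93 and 4.77. The ratio was lower for Tff3, 1.89 (1.80 to 1.99), and Vil1, 1.86 (1.76 to 1.97), and higher for Muc2, 8.61 (6.74 to 11.1), Slc5a1, 18.0 (16.2 to 20.1), and Apob, 23.9 (18.7 to 31.2). The intervals cover counting error only and leave out the variation of amplification and sampling. Over 53 other enterocyte genes with at least 100 counts in bottom 1 the median ratio was 4.66, with quartiles of 3.14 and 6.24 and a range of 0.715 (Ush1c) to 332 (Cd36). That cut-off uses bottom 1 alone and favours genes that are high there. High ratios were thus favoured in advance, and nothing is read from the median.

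For the enterocyte genes among the 10, top 1 held between 5.82% and 23.6% of the level in bottom 1. That share was smaller than in bottom 2 for all of them but Apob and Slc5a1, which had 4.18% and 5.55% in bottom 2. Fabp2 reached 5.82%, Lgals4 5.87%, Sis 6.28%, Apoa1 6.78% and Apoa4 6.80%, while Slc5a1 reached 11.4%, Vil1 17.3% and Apob 23.6%. The 53 other enterocyte genes had a median of 11.1%, with quartiles of 5.71% and 16.5% and a range of 0% (Slc3a1) to 114% (Tmprss15). They were kept by the same cut-off on bottom 1, which favours low shares in other libraries. Top 4, the batch 2 library with the highest summed level, held 3.51% of the bottom 1 level of Fabp2, 2.28% for Lgals4, 1.06% for Apoa1, 0.895% for Apoa4 and 0% for Sis. By this share, Fabp2 stood below Apoa1 in top 1 and above it in top 4. The count intervals of Fabp2, Lgals4 and Sis overlapped in top 1, so their order there is not resolved. Goblet cell genes outside the 10 spread widely in top 1: Zg16, a secreted lectin of goblet cells, had 0.94% of its bottom 1 level there, Fcgbp, which is secreted with mucus, 0.149%, and Guca2a, the guanylin gene, and Spink4 had 0%. Creb3l1, a transcription factor of secretory cells, had 77.8% and Galnt12, a glycosyltransferase of mucin-type sugar chains, 144%. Over the 7 such genes that passed the same cut-off on bottom 1 the median was 0.874%. The ratio of bottom 1 to bottom 2 was 1.58 for Zg16, 1.98 for Fcgbp, 5.36 for Guca2a, 6.29 for Spink4 and 282 for Agr2, so goblet cell genes had no common ratio.

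**Figure D3:**
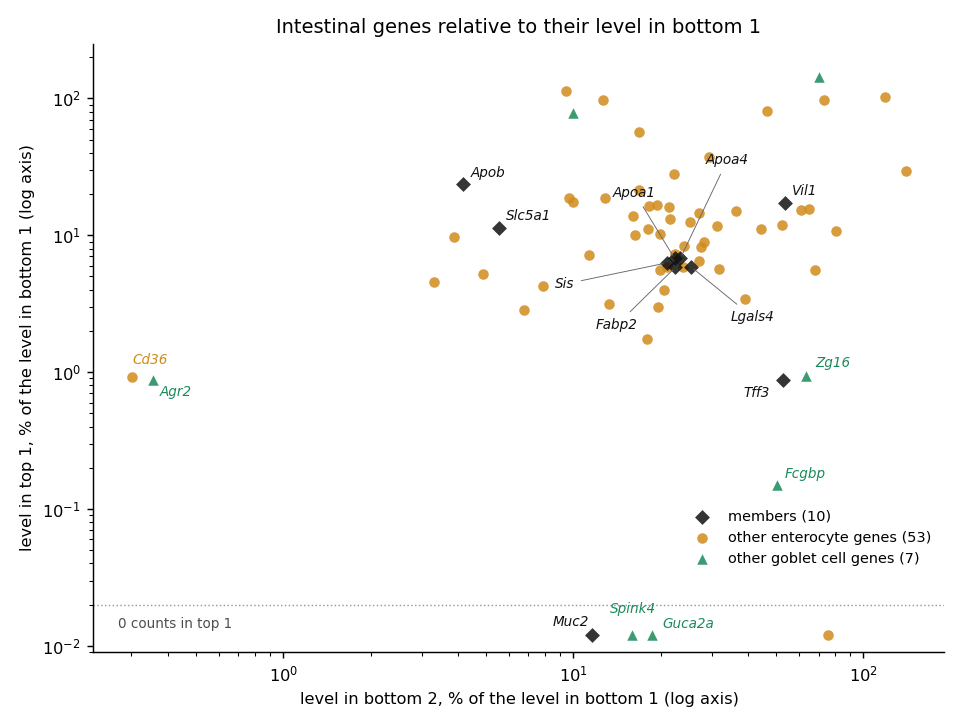
Level in bottom 2 (x axis) and in top 1 (y axis), each as a percentage of the level in bottom 1, on log axes, for the 10 genes (diamonds), 53 other enterocyte genes (circles) and 7 other goblet cell genes (triangles) with at least 100 counts in bottom 1, except that all 10 genes are shown; genes under the dotted line had 0 counts in top 1. Fabp2, Apoa1, Apoa4, Lgals4 and Sis lie together at 5.82% to 6.80% on the y axis, and Tff3 and Muc2 lie below 1%.

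The 10 genes also had much the same profile over the 8 libraries. The correlation of each gene's log2(CPM + 1) with the mean of the other 9 was highest for Apoa4, 0.993, and lowest for Vil1, 0.892, and Muc2, 0.845 (Pearson's r over 8 libraries, given as a description). Those correlations rest largely on the same high libraries, bottom 1, bottom 2 and top 1 of batch 1, with top 4 of batch 2 next. The mean log2(CPM + 1) of the 10 was 9.70, 7.31, 1.10 and 0.72 in bottom 1 to bottom 4, against 5.70, 2.58, 1.15 and 3.505 in top 1 to top 4. Among the other 11714 genes tested, 165 (1.41%) had an r of at least 0.9 with that profile, and 67 had at least 0.95. The 10 highest were Ms4a10 and Creb3l3 (both 0.997), Krt20 and Gstm3 (both 0.995), Adh6a (0.994), Lct (0.992), Tm4sf5 and Gsta4 (both 0.990), 2210407C18Rik (0.989) and Muc13 (0.988). Lct is lactase, a brush border disaccharidase, Creb3l3 a membrane-bound transcription factor of liver and intestine, Krt20 a keratin of differentiated gut epithelium and Muc13 a membrane mucin. Creb3l3 had 370, 77.8, 0 and 0.185 CPM in bottom, against 21.7, 2.51, 0 and 3.33 CPM in top. Of 58 intestinal genes outside the 10 that were tested, 23 (39.7%) reached an r of 0.9.

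Some neighbours of the 10 genes along the chromosome shared the profile and others did not. In the apolipoprotein cluster of chromosome 9 (gene order from GRCm38), Apoa1 and Apoa4 flank Apoc3, an apolipoprotein that slows triglyceride clearance, which had 337, 123, 5.90 and 0.556 CPM in bottom, against 51.1, 4.52, 4.33 and 2.38 CPM in top. Apoa5, the next gene, which is known from liver, had 0 CPM in all 8 libraries. Sik3, the kinase gene on the other side, had 21.6, 31.5, 10.2 and 13.1 CPM in bottom, against 30.1, 41.8, 31.8 and 6.35 CPM in top. It was highest in top 2 and lacked the high bottom 1 values of Apoa1 and Apoa4. On chromosome 7, Muc2 lies between the gastric mucin genes Muc6 and Muc5ac, which had at most 0.219 and 0.288 CPM in any library. On chromosome 17, Tff3 lies next to Tff2, which had 2.08, 8.88, 0 and 0 CPM in bottom, against 0, 1.26, 0 and 0 CPM in top, and Tff1 beyond it was at 0 in all 8. Lgals7, next to Lgals4, was also at 0 in all 8. Ech1, an enzyme of fatty acid oxidation on the other side of Lgals4, had 376, 126, 90.6 and 65.8 CPM in bottom, against 76.5, 73.1, 35.98 and 92.6 CPM in top. Bche, the butyrylcholinesterase gene near Sis, had 261, 62.4, 0.211 and 0 CPM in bottom, against 13.4, 0, 0 and 0.159 CPM in top, with the same high libraries as Sis.

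**Figure D4:**
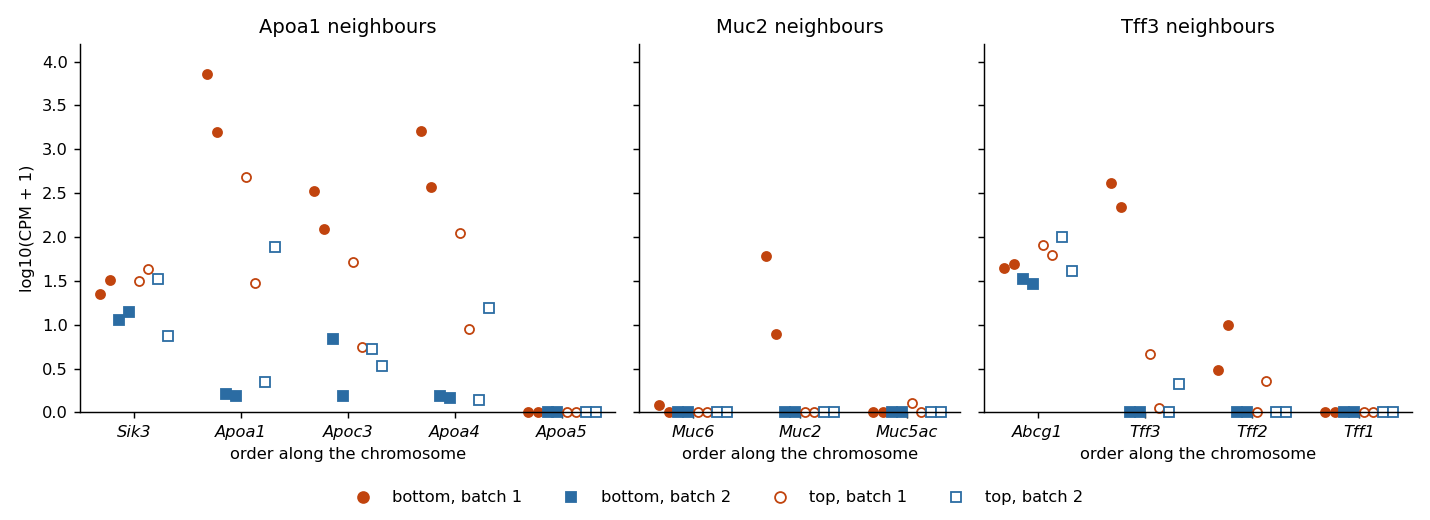
Level as log10(CPM + 1) in each library of Apoa1, Muc2 and Tff3 and of their neighbours, in gene order along the chromosome (x axis, no distances); filled symbols are bottom and open ones top, circles batch 1 and squares batch 2. Apoc3 shares the high values of Apoa1 and Apoa4 in batch 1, while Apoa5, Muc6, Muc5ac, Tff1 and Sik3 do not.

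Other intestinal genes were then described from 10 lists, which were drawn up with earlier results of these data known and hold 107 genes in the table. Of these, 58 passed the filter; 41 of the 58 had a positive log2 fold change, with a median of 0.84, beside 50.1% and 0.003 for all genes tested. EdgeR called 1 of the 58 higher, beside 0.282% of all genes, and 0 lower, beside 0.162%. The called gene was Cdhr2, a protocadherin that links the tips of microvilli. It had 276, 144, 33.3 and 15.2 CPM in bottom, against 32.9, 7.16, 0.495 and 1.90 CPM in top (log2 fold change 3.83, SE 0.66, edgeR adjusted p 0.0491). Within each batch, both bottom libraries of Cdhr2 were above both top libraries. The call was lost when any 1 of the 8 libraries was left out, and in the fit without bottom 1, bottom 2 and top 1 together, where 0 of 53 genes were called. Of the 92 listed genes with any count, 72 were highest in bottom 1. The share over all genes was not computed, so nothing is read from that count.

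The lists of enterocyte function were high in the same libraries. Enterocyte lipid handling, 17 genes without the 10, summed to 21908, 5742, 192 and 199 CPM in bottom, against 1770.0, 366, 293 and 651 CPM in top. In it, 0 of 14 genes tested were called and 9 had a positive fold change. Its leading genes were the fatty acid binding protein Fabp1, with 9796, 2336, 0.632 and 0.741 CPM in bottom and 576, 47.6, 0.618 and 253 CPM in top, the retinol binding protein Rbp2 (mean 1802 ± 2578 CPM in bottom, 108 ± 145 CPM in top), Apoc2, an activator of lipoprotein lipase (759 ± 1117 in bottom, 81.3 ± 96.2 in top), and the acyl-CoA synthetase Acsl5 (312 ± 441 in bottom, 58.4 ± 37.0 in top; SD, n = 4 each). Brush border hydrolases, 15 genes, summed to 4245, 998, 111 and 163 CPM in bottom, against 541, 136, 106 and 167 CPM in top; 0 of 10 tested were called and 7 were positive. They were led by the intestinal alkaline phosphatase Alpi (mean 236 ± 366 CPM in bottom, 21.9 ± 25.1 CPM in top), the aminopeptidase Anpep (231 ± 362 in bottom, 8.76 ± 10.5 in top) and the maltase-glucoamylase Mgam (188 ± 307 in bottom, 30 ± 40.1 in top; SD, n = 4 each).

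Enterocyte transporters, 16 genes, summed to 1862, 539, 104 and 97.5 CPM in bottom, against 335, 178, 182 and 165 CPM in top. Here 0 of 10 tested were called and 7 were positive. The fructose transporter Slc2a5 led the list without following the pattern, at 61.3 to 187 CPM in bottom and 106 to 166 CPM in top, whereas the bile acid exporter subunit Slc51a had 346, 16.9, 0.421 and 0.463 CPM in bottom, against 18.1, 0.126, 0.371 and 0.318 CPM in top. The amino acid transporter Slc6a19 had 282, 47.7, 0 and 0 CPM in bottom, against 60.3, 12.7, 0.124 and 0.794 CPM in top. The folate transporter Slc46a1 averaged 66.8 ± 85.1 CPM in bottom and 7.93 ± 9.76 CPM in top (SD, n = 4 each). Brush border cytoskeleton and adhesion, 13 genes, summed to 2245, 688, 236 and 140 CPM in bottom, against 309, 227, 172 and 150 CPM in top. It held Cdhr2, and 8 of 9 tested genes were positive; the actin bundler Pls1 had 805, 194, 14.8 and 15.6 CPM in bottom, against 67.3, 22.9, 17.6 and 17.8 CPM in top. Ezr, which ties actin to the membrane, and Ush1c, a scaffold of the microvillus tip, averaged 125 ± 152 and 59.7 ± 33.8 CPM in bottom, and 61.4 ± 6.67 and 43.7 ± 18.6 CPM in top (SD, n = 4 each), with overlap for both.

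Goblet cell genes, 11 without Muc2 and Tff3, summed to 1494, 716, 46.2 and 75.6 CPM in bottom, against 46.8, 28.9, 39.1 and 27.3 CPM in top. Only 4 passed the filter, with 3 positive and 0 called. Zg16 had 750.2, 475, 3.06 and 0.834 CPM in bottom, against 7.05, 1.13, 5.07 and 2.38 CPM in top, and Fcgbp had 386, 195, 0.632 and 0 CPM in bottom, against 0.575, 3.52, 0 and 0.159 CPM in top. Guca2a had 135.2 and 25.2 CPM in bottom 1 and bottom 2 and 0 in the other 6 libraries. Agr2, a disulfide isomerase needed for mucin, had 132 CPM in bottom 1 and at most 1.15 CPM elsewhere. Atoh1, which specifies secretory cells, and Retnlb, a goblet cell product, were at 0 in all 8. Intestinal transcription factors, 9 genes, summed to 822, 366, 219 and 271 CPM in bottom, against 169, 116, 197 and 215 CPM in top; all 5 tested were positive and 0 called. The CDX factors of this list were low, and other genes gave nearly all of its sum. Cdx2 had 4.916 CPM in bottom 1, 1.007 CPM in top 1 and 0 in the other 6 libraries. Cdx1 had 3.496 and 0.2804 CPM in bottom 1 and bottom 2 and 0 in the other 6. Neither passed the filter. Hnf4a, a nuclear receptor of gut, liver and islet, had 52.4, 29.4, 25.9 and 19.8 CPM in bottom, against 8.63, 15.2, 13.7 and 7.78 CPM in top, with no overlap and without a call (edgeR adjusted p 0.378). Elf3, an epithelial ETS factor, had 419 and 95.5 CPM in bottom 1 and bottom 2 and 11.2 to 48.7 CPM in the other 6; Hnf4g averaged 74.1 ± 86.1 CPM in bottom and 20.5 ± 16.8 CPM in top, and Klf4 averaged 149 ± 44.5 CPM in bottom and 102 ± 39.2 CPM in top (SD, n = 4 each).

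Genes that mark other parts of the gut or the liver were low in all 8 libraries, apart from Aqp8 of the colon list. The ileum list summed to 0.211 to 20.2 CPM in bottom and 0.371 to 13.0 CPM in top; the ileal genes Fabp6 and Fgf15 were at 0 in all 8, the bile acid receptor Nr1h4 made up nearly all of it, and Slc10a2 had at most 0.371 CPM. The colon list had 119, 13.9, 0.105 and 0 CPM in bottom, against 3.74, 1.13, 0 and 1.27 CPM in top, almost all from the water channel Aqp8, with Car1, Hoxb13 and Saa1 at 0 throughout. The stomach list summed to at most 8.88 CPM in bottom and 6.91 CPM in top, with the proton pump subunit Atp4a and Tff2 in the lead, and 7 of its 11 genes were at 0 in all 8 (Tff1, Gkn1, Gkn2, Gkn3, Pgc, Atp4b and Gif). The hepatocyte list summed to 30.02 to 43.4 CPM in bottom and 10.5 to 27.6 CPM in top. Its leading genes by mean CPM, Cyp2e1 and Tat, had at most 13.9 and 13.4 CPM, and Ahsg was at 0 in all 8. Single libraries held more of Serpina1a, with 21.5 CPM in bottom 2, and of Hpx, with 18.8 CPM in bottom 1. Apoa2 had 3.28, 9.44, 0 and 0 CPM in bottom, against 1.3, 1.63, 0 and 3.02 CPM in top. Liver also makes Apoa1 and Apob, and the source of their RNA was not tested.

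Marker lists of cells of the pancreas are given for comparison. Of the beta cell list, 3 of 8 genes were called lower in bottom (Ins1, Ins2 and G6pc2), of the delta cell list 3 of the 3 tested higher (Sst, Hhex and Rbp4), and of the alpha cell list, led by Gcg and Ttr, 0 of 5. Acinar genes summed to 445, 1458, 438 and 301 CPM in bottom, against 51.8, 34.03, 228 and 43.4 CPM in top. They were highest in bottom 2, not in bottom 1. Duct genes, led by Spp1 and Krt7, summed to 276 to 795 CPM in bottom and 140 to 396 CPM in top, with the highest sum in bottom 3, where Spp1 gave 617 CPM of it. Krt19, a duct keratin that gut epithelium also has, had 227, 32.9, 11.2 and 0.463 CPM in bottom, against 6.76, 0, 0 and 12.4 CPM in top, and was highest in bottom 1 and bottom 2. Ptf1a of the acinar list and Onecut1 of the duct list were at 0 in all 8. Epithelial surface genes, which islet, duct and gut cells share, summed to 2111, 1262, 1367 and 921 CPM in bottom, against 589, 597, 749 and 706 CPM in top, with Krt8 called higher (372 to 709 CPM in bottom, 132 to 180.0 CPM in top; edgeR adjusted p 0.0462) and Epcam not. Fibroblast genes summed to 3.28, 180.1, 191 and 769 CPM in bottom, against 0.575, 0.251, 0.371 and 12.4 CPM in top, lowest among bottom libraries in bottom 1; Dcn and Col3a1 were called higher, and Col1a2 was not. Leukocyte genes, led by Cd8a and Ptprc, summed to 2.84 to 12.5 CPM in bottom and 2.06 to 3.77 CPM in top. Whether cells of these kinds, or of the gut, were among the sorted cells was not tested.

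**Figure D5:**
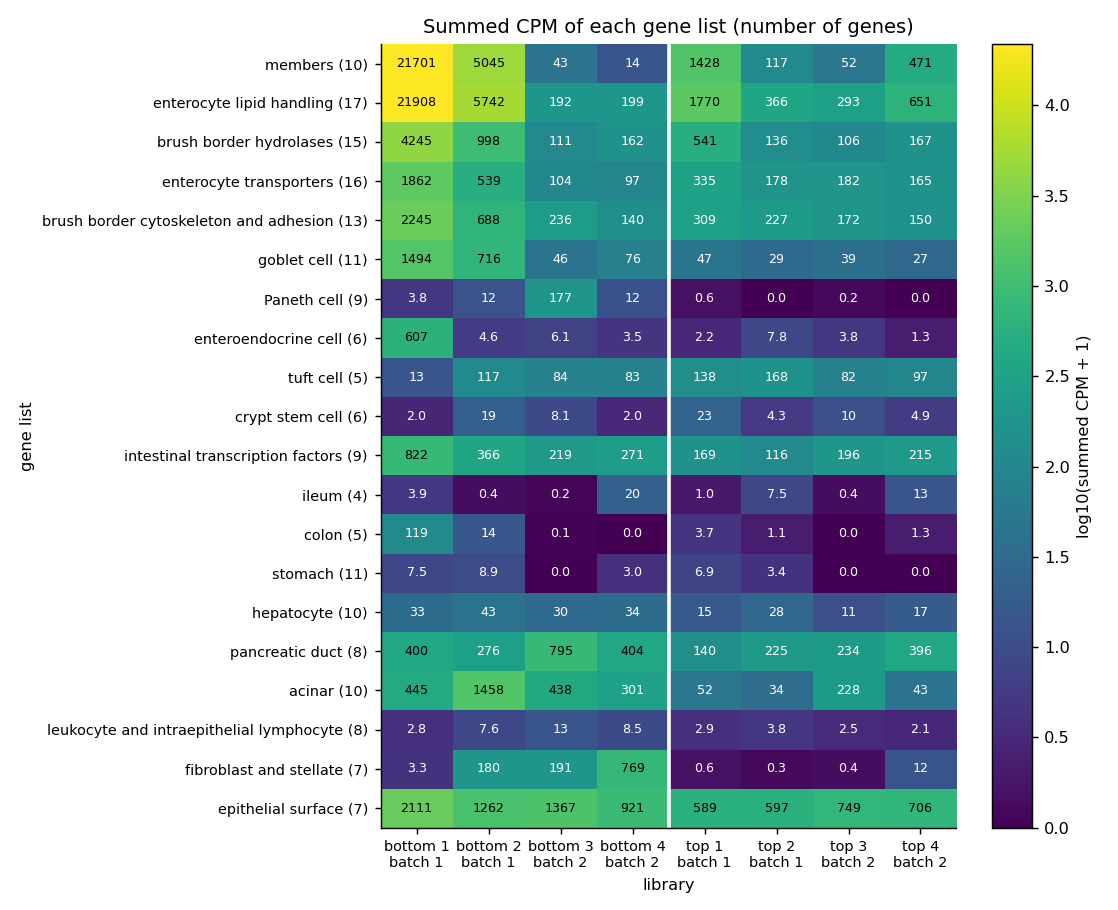
Summed CPM of the 10 genes (top row, members) and of the gene lists, with the number of genes in brackets, in the 4 bottom and the 4 top libraries. The beta, alpha and delta cell lists are not shown. Colour is log10 of the summed CPM + 1 and the printed number is the sum in CPM. The rows of enterocyte and goblet cell genes are highest in bottom 1 and bottom 2, with 21908 and 5742 CPM for lipid handling, while the sums of acinar, duct and fibroblast genes peak elsewhere: acinar in bottom 2, duct in bottom 3, fibroblast in bottom 4.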

How the data were processed

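The authors deposited expected counts, in which RSEM splits reads that match more than 1 gene among those genes. They came as 1 table per library and 1 of the whole series, and these differed by 0 over 23366 genes. RSEM, edgeR and mm9 are named per the submitters' processing notes; the aligner, annotation and versions are not given in the sources used here. Levels of closely related genes are uncertain, and strand was not kept as far as the labels say. No coordinates of the expression table are given, since the reference tables are of another build.

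Expected counts, of which 34.8% were not whole, were rounded. The quasi-likelihood test of edgeR (4.0.16, with limma 3.58.1 under R 4.3.3) was run as follows: TMM scaling, filterByExpr by population, batch as a covariate, Benjamini-Hochberg adjustment over 11721 genes (at least 98.01% of each library's counts), calls at an adjusted p under 0.05. The SE given with an edgeR fold change was derived from the test. It is the log2 fold change, without its sign, divided by the square root of the F statistic. The common biological coefficient of variation was 0.806. The script was first tested on simulated data, with less spread than the real libraries have. CPM are after TMM scaling, and the pseudocount on log scales was 1. Levels were not scaled by gene length, as no lengths were given, so rankings of genes and sums over genes are of CPM alone.

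The 10 genes, the gene lists (10 intestinal, 12 others, 1 listed gene, Sh2d6, not found), the tests and the alternatives were chosen with earlier results of these data known. Named were the 10 genes, every called gene of a list, up to 4 leading genes per intestinal list by mean CPM in bottom, 2 per other list over all libraries, listed genes at 0 throughout, and the 10 most alike genes. The chromosomal neighbours, Krt19, Spink4, Creb3l1, Galnt12, Serpina1a, Hpx, Apoa2, Cdx1, Cdx2 and other genes given as extremes of a range, were chosen after their values were seen. Alternatives were other scalings, no filter, DESeq2 1.42.0, no batch term, each batch alone and each library left out; the fit without bottom 1, bottom 2 and top 1 was added after seeing the data. Some genes that this rule names are not reported here.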

Additional observations from a re-analysis of the deposited data

Results flagged for a closer look

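In some groups of 4 libraries, 1 library lay so far from the others that its gap to the next exceeded Dixon's 95% critical value for 4 samples. This held for 11 of 41 groups examined. Chance flags about 1 in 20 groups, but that rate is no yardstick here, since the genes and lists were chosen with these library values known and share the libraries. In bottom 1 it held for Apob (146 CPM, next 6.08), Slc5a1 (605 CPM, next 33.6), Muc2 (59.5 CPM, next 6.92) and the summed enteroendocrine genes (607 CPM, next 6.11). In top 1 it held for Apoa1 (483 CPM, next 75.3), Apoa4 (109 CPM, next 14.3), Apob (34.4 CPM, next 1.11), Sis (54.2 CPM, next 1.38), the summed brush border hydrolases (541 CPM, next 167) and the summed enterocyte transporters (335 CPM, next 182). In bottom 3 it held for the summed Paneth cell genes (177 CPM, next 11.96), through Mmp7.

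For 3 genes both bottom libraries were above both top libraries in batch 1 and below them in batch 2. The log2 difference in batch 2 minus that in batch 1 was -10.72 for Fabp2, -10.06 for Apoa1 and -9.24 for Lgals4. These values are given without a test, since the genes were chosen with both batches in view.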

How the results depend on the processing

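Genes called higher in bottom numbered 33, and 55 without scaling beyond the library total, 138 without the low-count filter, 368 by DESeq2, 18 without the batch term, 2 in batch 1 alone, 2 in batch 2 alone, 2 without bottom 1, bottom 2 and top 1 together (added after seeing the data) and 3 to 36 with 1 library left out. Genes called lower numbered 19, and 68 without the filter, 219 by DESeq2, 0 in batch 1 alone, 0 in batch 2 alone, 0 without those 3 libraries and 5 to 24 with 1 library left out. Other intestinal genes called higher numbered 1 (Cdhr2), and 8 without the filter, 6 by DESeq2, 0 without the batch term, 0 in each batch alone, 0 without the 3 libraries and 0 to 1 with 1 left out, the 1 being Cd36 without bottom 2. Interaction calls numbered 0, and 73 without the filter, 187 by DESeq2 and 0 to 0 with 1 library left out. The summed level of the 10 genes was 6701 CPM in bottom (1700.6 to 8930 with 1 library left out) and 517 CPM in top (214 to 672). Of 108 alternative fold changes of the 7 fitted genes, 29 had another sign, in 6 of the 7. Sis, from 2.24 to 7.66, was the exception, but it was not fitted in batch 2 alone or without those 3 libraries. Fabp2 ran from -6.45 to 4.23. The causes were not tested. Depth limits low levels: up to 0.476 CPM, a library of 0 counts cannot be told from one that holds the gene. No paired analysis was possible because the populations share only 1 number per batch in the labels.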

Other observations

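Lists of secretory and rare gut cell types differed in which libraries were high. Of the enteroendocrine list (6 genes, 2 tested, 0 called), Sct, the secretin gene, had 475, 4.58, 1.05 and 1.95 CPM in bottom 1 to bottom 4, against 0.144, 0, 0 and 0.318 CPM in top 1 to top 4. All 4 bottom libraries were above all 4 top libraries (log2 fold change 9.12, SE 2.36; adjusted p by edgeR 0.179). It was called without the low-count filter and by DESeq2. Tph1, the first enzyme of serotonin synthesis in enterochromaffin cells, which islet cells can also express, had 133 CPM in bottom 1 and at most 1.02 CPM elsewhere. Tac1 had at most 4.95 CPM in bottom and 7.78 CPM in top, Cck at most 0.556 CPM, and Gip and Nts were at 0 in all 8.

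Of the Paneth cell list (9 genes, 0 tested), the matrix metalloproteinase Mmp7 had 0.219, 0, 177 and 11.6 CPM in bottom, against 0, 0, 0.124 and 0 CPM in top. Its high libraries were thus bottom 3 and bottom 4 of batch 2, where the 10 genes summed to 43.3 and 13.7 CPM, mostly from Vil1. Itln1 had at most 10.9 CPM, Lyz1 at most 1.03 CPM and Defa24 at most 0.219 CPM, while Ang4, Defa17, Defa5, Defa20 and Pla2g2a were at 0 in all 8. Of the tuft cell list (5 genes, 2 tested, 0 called), the channel Trpm5, which islets also express, had 13.3, 1.12, 0.421 and 8.89 CPM in bottom, against 125, 167, 81.7 and 92.7 CPM in top, without overlap (log2 fold change -4.28, SE 0.93, edgeR adjusted p 0.104). Trpm5 was called lower without the low-count filter and by DESeq2. Dclk1 had 0.109, 116, 83.5 and 74.4 CPM in bottom, against 12.7, 0.502, 0 and 4.60 CPM in top, and Il25, Pou2f3 and Gfi1b were at 0 in all 8. Of the crypt stem cell list (6 genes, 2 tested, 0 called), Olfm4 had at most 18.6 CPM in bottom and 21.6 CPM in top, Axin2 at most 7.69 CPM in bottom and 7.54 CPM in top, Lgr5 and Rnf43 stayed under 1.4 CPM, and Ascl2 and Smoc2 were at 0 in all 8.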
